A study of Brassica rapa with 6 samples.

Results

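The circular RNAs (circRNAs) described here are those that the authors' table types as intergenic, leaving out a cluster on chromosome A06 between positions 15079018 and 15619492 (the A06 block). There were 180 of them among 886 circRNAs in the table. Of the others, 383 were intergenic circRNAs of the block, 311 were exon or intron circRNAs outside it and 12 were exon circRNAs within it. They come from Chinese cabbage (Brassica rapa), with 3 petiole and 3 leaf libraries, all from wild type plants grown in a greenhouse. Ribosomal RNA had been depleted from total RNA and the libraries were stranded, so circular molecules, which have no poly(A) tail, stay in the sample. The labels do not say whether the libraries of a tissue came from separate plants, so p-values measure only the spread between these libraries, which may be technical.

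Circular RNA forms when the spliceosome joins the end of a stretch of transcript back to a point upstream of it, and a read across that back-spliced junction identifies the circle. Most plant circRNAs described so far come from exons of protein-coding genes, and they are usually far less abundant than linear RNA. A circle is commonly called intergenic when no single annotated gene holds both of its ends, which includes circles that span several genes as well as circles from unannotated sequence. The petiole is the stalk that supports and supplies the green blade, in which most photosynthesis takes place.

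They lay on all 10 chromosomes, from 29 on A06, 26 each on A05 and A07 and 20 on A03 to 6 on A10, with 98 on the plus strand and 82 on the minus strand. Across all circRNAs the libraries held 3216 to 4227 back-spliced reads, of which 3593, 3446 and 3327 lay outside the A06 block in the petiole libraries and 1785, 1951 and 1914 in the leaf libraries. Linear estimated counts ranged from 111518411 to 132861243 per library. The tissue labels were checked against markers of the green blade (chlorophyll a-b binding, Rubisco small chain, Rubisco activase, photosystem I and oxygen-evolving proteins). Their summed linear level was 924 to 978 FPKM in petiole and 7273 to 7719 FPKM in leaf, and 55 of 59 tested markers were lower in petiole and 0 higher. Of 32 tested genes for vascular tissue, 14 were higher and 9 lower in petiole. As these are bulk samples, fewer cells of a type and less RNA per cell cannot be told apart.

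The intergenic circRNAs outside the block were of 2 sizes. Their genomic span, from the first to the last base of the circle and including any introns, had a median of 5809.5 bases, with quartiles of 259.75 and 12572 bases, and ran from 136 to 135923 bases. Below 1000 bases lay 62 of them (34.4%), and 53 spanned more than 10000 bases. Exon and intron circRNAs outside the block had a median span of 223 bases, and 94.9% of them were shorter than 1000 bases. Intergenic circRNAs of the block were split in a like way, with 125 of 383 (32.6%) below 1000 bases and 236 above 10000 bases. Their median was 20195 bases. The long circles carried most of the signal: the 118 of at least 1000 bases held 4489 of the 5074 member reads (88.5%), and 62 of them (52.5%) were found in at least 2 libraries, against 8 of the 62 short circles (12.9%).

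**Figure D1:**
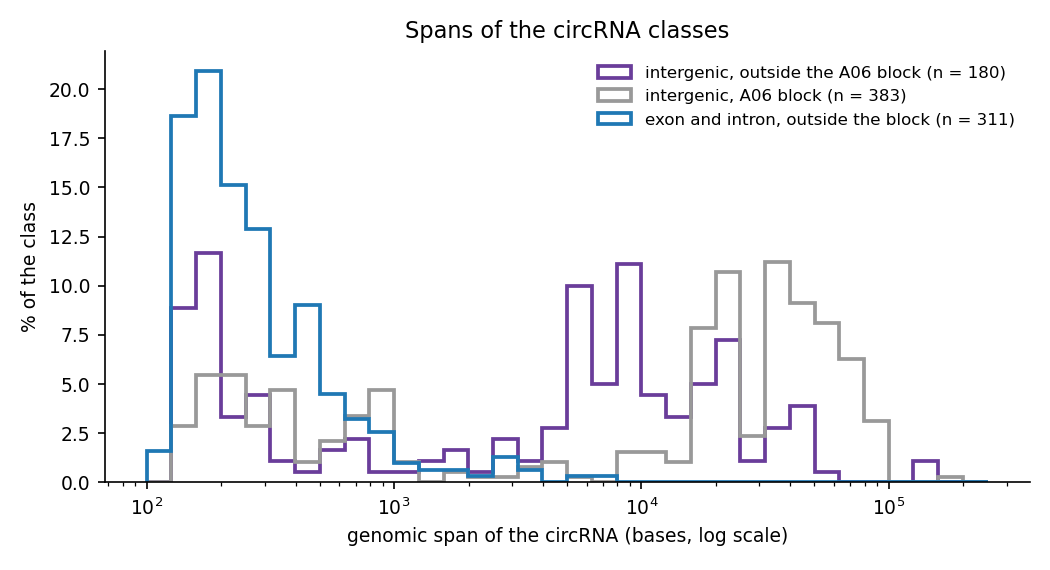
Share of each class (vertical axis, %) by genomic span (horizontal axis, bases, log scale) for intergenic circRNAs outside the A06 block (n = 180), intergenic circRNAs of the block (n = 383) and exon and intron circRNAs outside it (n = 311). The first class has a short and a long peak with a median of 5809.5 bases, while exon and intron circRNAs are nearly all short, with a median of 223 bases. Of the intergenic circRNAs of the block, 32.6% span less than 1000 bases, and their median is 20195 bases.

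Although they are typed as intergenic, 149 of the 180 (82.8%) shared at least 1 base with an annotated gene, and 136 did so on their own strand. None lay within a single gene and all 311 exon and intron circRNAs outside the block did, a difference that the types themselves may fix. Together they overlapped 307 genes, at most 18 for 1 circle, and 57 circles overlapped at least 3. The annotated transcripts all have lengths that are multiples of 3, so the gene spans hold no untranslated parts, and a circle end just outside a gene may lie in its untranslated sequence. When every transcript filed under an annotated gene's name was counted, including isoforms that run past the coding span, 176 of 180 overlapped one.

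Where the circle ends fell divides these circRNAs into 4 kinds. In 77 (42.8%) the start lay in 1 gene and the end in a different one. These circles spanned a median of 9782 bases, and they held 3400 of the member reads (67.0%). In 53, 1 end lay in a gene, with a median span of 238 bases. Another 31 overlapped no gene, with a median span of 209 bases, and 19 enclosed whole genes with neither end in one, with a median span of 9964 bases. By contrast, 0 of the 383 intergenic circRNAs of the block had their ends in 2 different genes. Exon and intron circRNAs each lay within 1 gene, so their ends could not. Of the 383 block circles, 192 (50.1%) overlapped any gene, at most 4 for 1 circle, against 149 of 180 and at most 18 here. The part of annotated gene density in this contrast was not tested. Of the 77 gene-to-gene circles, 44 (57.1%) were found in at least 2 libraries, against 12 of 53 (22.6%) of those with 1 end in a gene, 5 of 31 (16.1%) of those without a gene and 9 of 19 (47.4%) of those around whole genes.

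The gene-to-gene circles mostly linked nearby genes of the same name or KEGG orthology (KO) entry, a code for shared protein function, as 55 of the 77 did. In all 77 the end genes lay on the same strand, and in 75 the circle was on that strand too. Where both genes carried a protein name, 40 of 46 (87.0%) had the same one, and where both had a KO entry, 44 of 48 (91.7%) had the same entry. Among all pairs of named genes on 1 strand, 10.9% of direct neighbours had the same name. For pairs 2 and 3 genes apart the shares were 4.27% and 2.83%. Among all pairs on 1 strand with a KO entry on both genes, 22.2%, 10.5% and 6.73% at these distances had the same entry. Of the circles with named end genes, the same name was shared by 14 of 17 that joined direct neighbours, 10 of 12 that joined genes 2 apart and 9 of 9 that joined genes 3 apart. Direct neighbours were joined by 31 circles, genes 2 or 3 apart by 33 and more distant genes by 13, the farthest 10 genes apart. The 77 circles used 63 different gene pairs, 11 of which were joined by more than 1 circle, and each pair counted once gave 30 of 35 (85.7%) with the same name.

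The place of the circle start in its gene was also compared with that of the circle end in its own. The distance from the left edge of the end gene to the circle end, less the distance from the left edge of the start gene to the circle start, had a median of -131 bases with quartiles of -458 and -13 bases. It was within 1000 bases either way in 59 of the 77 and below 0 in 59. Each distance is limited by the length of its gene, so short genes alone keep the difference small. No comparison was made with ends placed at random in the same genes. Whether the ends match in position beyond that was therefore not tested. Reads from near-identical gene copies are hard to assign to 1 of them, so the position of these junctions is uncertain, and the part of read assignment in these circles was not tested.

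**Figure D2:**
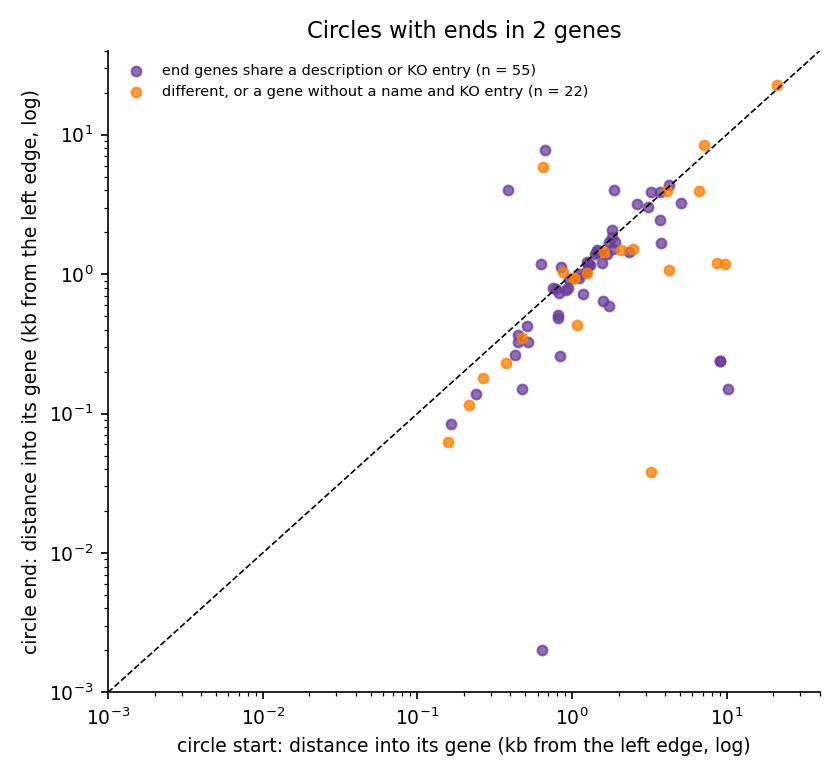
For each of the 77 circles with ends in 2 genes, the distance of the circle start into its gene (horizontal axis) and of the circle end into its gene (vertical axis), both in kb from the left edge of the gene on log scales, with colour for end genes that share a name or KO entry (n = 55) and for the others (n = 22). The dashed line marks equal distances, and 59 of the 77 points lie within 1000 bases of it.

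Of these 180 circles, the one with the most reads joined 2 genes for ubiquitin fused to ribosomal protein L40, which supply ubiquitin and a part of the large ribosomal subunit. circRNA249 spanned 5319 bases on the minus strand (A05, 4897871 to 4903189) from BraA05g009210.3C to BraA05g009230.3C. It had 0, 256 and 214 reads in the petiole libraries and 0, 226 and 127 in the leaf libraries. The libraries numbered 1 of both tissues were at 0 while the other 4 were high, and the tissues overlapped. Its end genes did not pass the linear test (edgeR adjusted p = 0.982 and 0.611). Steady detection was rare: circRNA192 and circRNA44 alone were found in all 6 libraries. circRNA192 (A07, 26926029 to 26936543, plus strand) ran from the gene of defensin-like protein 4 to that of defensin-like protein 3; plant defensins are small secreted peptides of the defence against fungi. It had 21, 27 and 14 reads in petiole and 29, 18 and 40 in leaf. circRNA44 (A06, 844819 to 851916, minus strand) ran between 2 genes for ABC transporter G family member 24, of a family of membrane pumps. It had 15, 13 and 11 reads in petiole and 7, 4 and 18 in leaf. For both circles the tissues overlapped.

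Several circles could share a cluster. At the lipoxygenase 2 cluster on A07, whose enzymes begin the synthesis of jasmonate from plastid lipids, 4 circles used 3 neighbouring genes. circRNA394, circRNA191 and circRNA628 ran from BraA07g030990.3C to BraA07g031010.3C, and circRNA557 from BraA07g031000.3C to BraA07g031010.3C. The 4 together had 91, 14 and 52 reads in petiole and 6, 3 and 4 in leaf, so each petiole library was above each leaf library. As 1 locus it had an unadjusted p of 0.0338 and an adjusted p of 0.222 in edgeR's quasi-likelihood test over all circRNAs. Singly they were less even: circRNA394 had 67, 0 and 41 reads in petiole and 0, 3 and 0 in leaf, while circRNA557 had 14, 14 and 11 reads in petiole and 0, 0 and 4 in leaf. circRNA191 appeared in leaf replicate 1 alone with 6 reads and circRNA628 in petiole replicate 1 alone with 10.

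At the pair of genes for V-type proton ATPase subunit B3 on A07, part of the pump that acidifies the vacuole, 3 circles of 18285 to 18444 bases lay over nearly the same stretch. circRNA626 had 187 reads in petiole replicate 1 and 0 in every other library, the highest value of any circle found in a single library. circRNA625 had 8, 0 and 3 reads in petiole and 0 in leaf, and circRNA189 had 3, 3 and 0 in petiole and 2, 0 and 0 in leaf. Genes for CBL-interacting protein kinase 17, of a family switched on by calcium sensors, were joined by 4 circles, 3 on A08 and 1 on A06. On A08, circRNA194 had 0, 20 and 0 reads in petiole and 17, 32 and 0 in leaf. circRNA559, which shares its end and starts a few bases on, was found with 6 reads in leaf replicate 3, where circRNA194 was at 0.

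Other gene-to-gene circles involved genes of translation and lipid metabolism. circRNA17 joined 2 genes for a eukaryotic translation initiation factor that lie 10 genes apart on A01. It had 0, 0 and 85 reads in petiole and 33, 39 and 15 in leaf. For ribosomal protein S3-2, of the small ribosomal subunit, circRNA241 had 9, 2 and 11 reads in petiole and 0, 6 and 3 in leaf. circRNA24, which joins the same genes, had 0 in petiole and 20, 19 and 0 in leaf. circRNA190 and circRNA627 joined the genes of the glycerophosphodiester phosphodiesterase GDPD5, an enzyme family that breaks down lipid head groups. circRNA190 had 0, 0 and 31 reads in petiole and 32, 0 and 0 in leaf, and circRNA627 had 21, 8 and 0 in petiole and 0 in leaf. The tissues overlapped for all of these, and circRNA24 and circRNA627, each found in 2 libraries of 1 tissue, were at 0 in the remaining one.

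The 40 circles with 1 name at both ends covered 26 protein names. Beside those above they included enzymes of basic metabolism. Enoyl-acyl carrier protein reductase, of fatty acid synthesis, held circRNA28, with 22, 0 and 0 reads in petiole and 18, 0 and 0 in leaf. The catalytic subunit of the V-type ATPase held circRNA629, with 9, 0 and 12 reads in petiole and 0 in leaf. Both of these genes' circles were thus missing from most libraries. Protein NUCLEAR FUSION DEFECTIVE 4 held circRNA393, with 0, 0 and 34 reads in petiole and 0, 20 and 27 in leaf. Trimethylguanosine synthase, which methylates the cap of small nuclear RNAs, held circRNA187, with 0 in petiole and 15, 0 and 8 in leaf. At the low end, circRNA685 between 2 genes for triosephosphate isomerase, a glycolytic enzyme, had 2 reads in petiole replicate 2, and circRNA608 between 2 genes for heat shock protein 90-2, a chaperone, had 4 in petiole replicate 1.

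Among circles with 1 end in a gene, circRNA29 was among the steadiest of all. It spanned 2009 bases on A03, ended in the gene of a small nuclear ribonucleoprotein, part of the splicing machinery, and had 17, 10 and 0 reads in petiole and 7, 7 and 7 in leaf. circRNA240, of 31198 bases on A02, had 0, 9 and 18 reads in petiole and 0, 8 and 9 in leaf, absent from the libraries numbered 1 in both tissues as circRNA249 was. circRNA391, of 7563 bases on A07, had 0, 28 and 0 reads in petiole and 0, 22 and 0 in leaf, and so was found in the libraries numbered 2 alone. The labels do not say what libraries of 1 number share. Of the 53 circles of this kind, 35 were shorter than 1000 bases, and 25 of these lay on the strand of the gene they touched.

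One gene-to-gene circle lay over the gene of an abundant intron circRNA. circRNA441 (A04, 20890460 to 20898866, minus strand) ended in BraA04g030560.3C, the host of ciRNA16, which had 3597 reads over all libraries. It had 128, 0 and 138 reads in petiole and 0, 0 and 104 in leaf, so reads were either absent or above 100. Only 6 of the 180 overlapped any exon or intron circRNA.

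Of the 31 circles without a gene, 27 were shorter than 1000 bases and 8 stood at 1 place. These 8 formed a chain of overlaps on the plus strand of A06 between positions 91596 and 92807, far from the A06 block. Summed, they had 96, 44 and 16 reads in petiole and 30, 18 and 48 in leaf. circRNA41, of 657 bases, was the steadiest, with 24, 18 and 0 reads in petiole and 18, 15 and 32 in leaf. circRNA42, of 175 bases, had 34, 26 and 0 in petiole and 12, 0 and 16 in leaf. In petiole replicate 3 both were at 0, and circRNA755 and circRNA756, which run over the same stretch and end a few bases further on, were found there alone with 9 and 7 reads. Of all 31 circles without a gene, 11 lay within 1000 bases of one and 30 overlapped another transcript of the linear table, 19 of them an unannotated one.

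Of the 4 longest circles, 3 rested on few reads. The longest, circRNA248 on A05, enclosed 18 genes and had 2 reads in leaf replicate 2 alone. It belonged to a chain of 6 overlapping circles between positions 4670993 and 4807774, which together had 5, 14 and 6 reads in petiole and 17, 2 and 8 in leaf. circRNA397, of 50997 bases, and circRNA390, of 45488 bases, had 3 and 2 reads in leaf replicate 2. The exception was circRNA185 (A07, 814214 to 942509, minus strand), which spanned 128296 bases and 9 genes. It had 0, 38 and 12 reads in petiole and 67, 98 and 70 in leaf, and each leaf library was above each petiole library. It was not called in edgeR's quasi-likelihood test over all circRNAs (unadjusted p = 0.180, adjusted p = 0.932). At the other end of the scale, the 5 shortest, of 136 to 141 bases, were each found in 1 library, with 3 to 19 reads.

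Circles around whole genes could be found again at nearly the same ends. On A01, circRNA18, circRNA19 and circRNA429 shared their start and ended within 50 bases of each other. Together they had 18, 26 and 10 reads in petiole and 7, 14 and 15 in leaf. circRNA22, on A02, enclosed the gene BraA02g041800.3C of a cytochrome P450, a family of oxidising enzymes. It had 10, 5 and 0 reads in petiole and 103, 0 and 66 in leaf. Linear RNA of that gene averaged 0.412 FPKM in petiole and 22.5 FPKM in leaf and missed the threshold (edgeR adjusted p = 0.0627); with all transcripts under its name it passed (edgeR adjusted p = 2.33e-09). The leaf libraries thus held both its highest values and a 0.

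Detection was uneven from library to library. Of the 180 circles, 110 were found in 1 library, 32 in 2, 22 in 3, 9 in 4, 5 in 5 and 2 in all 6. At least 2 libraries held 38.9% of them, compared with 9.40% of the intergenic circRNAs of the block and 9.97% of the exon and intron circRNAs outside it. The median reads per circRNA also differed, at 8, 6 and 3 in these classes, and the part of reads in the shares was not tested. The smallest value above 0 was 2 reads, while exon and intron circRNAs had 69 values of 1, so a 0 here may stand for 1 read. Zeros went beyond that: of 54 circles with at least 10 reads in a petiole library, 46 were at 0 in another petiole library, and of 30 with at least 10 in a leaf library, 24 were at 0 in another leaf library. A pair of petiole libraries shared 15 to 22 circles, a pair of leaf libraries 13 to 17, and a petiole and a leaf library 9 to 19.

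**Figure D3:**
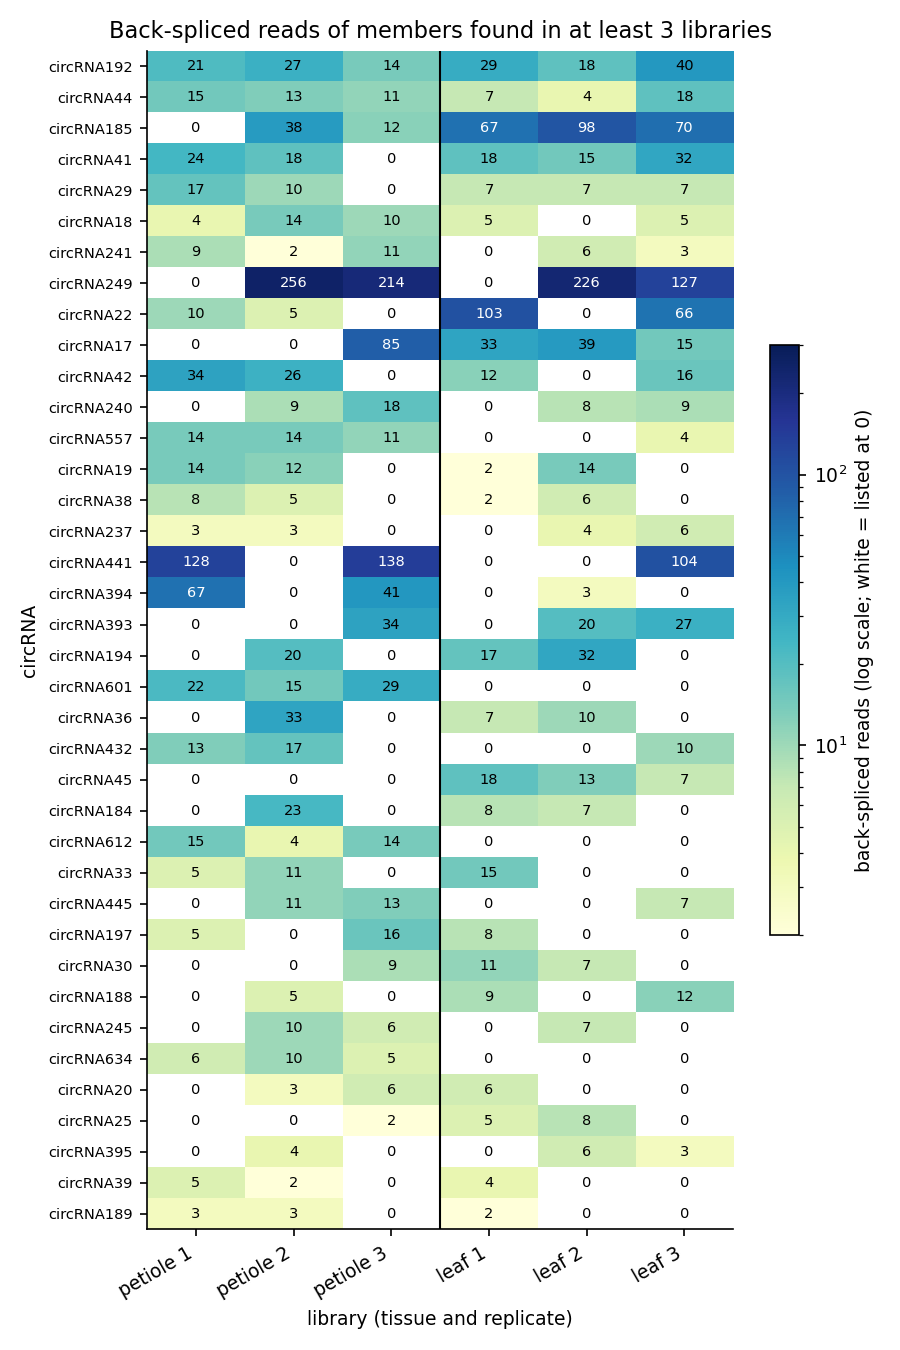
Back-spliced reads (numbers and colour, log scale; white is a value listed at 0) of the 38 circles found in at least 3 libraries (rows, most libraries first), with the 3 petiole libraries left of the line and the 3 leaf libraries right of it. Rows with high values beside zeros within a tissue are common, such as circRNA249 with 0, 256 and 214 reads in petiole.

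Overlapping circles filled some of these gaps. When circles on 1 strand that overlap by at least 50% of the longer one were joined, the 180 formed 148 loci, 21 of which held more than 1 circle. Of these 21, 17 were found in more libraries than any of their single circles, and in 9 no library held more than 1 of the circles. The A06 genes for the uncharacterized proteins LOC103871499 and LOC103871498 show this: circRNA618 had 83 reads in petiole replicate 1 and 0 elsewhere, and circRNA693 had 0, 52 and 91 reads in petiole and 0 in leaf. The locus therefore had 83, 52 and 91 reads in petiole and 0 in all 3 leaf libraries.

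In number, the petiole libraries held 59, 62 and 52 of the circles and the leaf libraries 44, 47 and 49. The means were 57.7 ± 5.13 in petiole and 46.7 ± 2.52 in leaf (SD, n = 3 each), and the tissues did not overlap (two-sided exact permutation test, p = 0.1, below which 3 libraries against 3 cannot go). Their reads summed to 1017, 862 and 1006 in petiole and 687, 723 and 779 in leaf, again with no overlap (exact permutation p = 0.1). Without circRNA249 they were 1017, 606 and 792 in petiole and 687, 497 and 652 in leaf, and the tissues overlapped (exact permutation p = 0.3). The authors' scaled signal summed to 10552, 10172 and 12464 in petiole and 5745, 4774 and 5210.1 in leaf, with no overlap (exact permutation p = 0.1). It multiplies each count by 1 constant per library, which was itself higher in petiole. The constant was 10.4, 11.8 and 12.4 in petiole and 8.36, 6.60 and 6.69 in leaf. Per 1000000 linear counts the reads came to 7.65, 6.64 and 8.33 in petiole and 5.98, 5.97 and 6.99 in leaf, where the tissues overlapped (exact permutation p = 0.2). Within replicate numbers, petiole was higher by 1.68, 0.674 and 1.34 (exact sign-flip permutation p = 0.25, below which 3 pairs cannot go). Drawn down to 1785 reads outside the block, the libraries would hold 56.9, 58.5 and 49.8 circles in petiole and 44.0, 47.0 and 49.0 in leaf. In this draw 1 remaining read was enough, whereas the smallest listed value above 0 is 2. That raises the numbers of the libraries that were drawn down most, the petiole ones, so the draw cannot settle the comparison. Petiole libraries alone held 78 of the circles, leaf libraries alone 55, and both tissues 47. Circles around whole genes were found in petiole alone in 2 cases and in leaf alone in 11, while gene-to-gene circles were found in petiole alone in 34 cases and in leaf alone in 14. No test over libraries was made of these last counts.

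As a share of the back-spliced reads outside the block, the direction turned round. The share was 28.3% (95% Wilson interval 26.9 to 29.8), 25.01% (23.6 to 26.5) and 30.2% (28.7 to 31.8) in petiole, and 38.5% (36.3 to 40.8), 37.1% (34.9 to 39.2) and 40.7% (38.5 to 42.9) in leaf (exact permutation p = 0.1). The intervals cover counting error only. Much of the denominator is 2 intron circRNAs, ciRNA14 and ciRNA16, with together 2190, 2281 and 2015 reads in petiole and 891, 965 and 887 in leaf. Without these 2 the share was 72.5%, 74.0% and 76.7% in petiole and 76.8%, 73.3% and 75.9% in leaf, and the tissues overlapped (exact permutation p = 0.6). Of all back-spliced reads, block included, it was 28.1%, 24.7% and 29.6% in petiole and 18.4%, 22.5% and 18.4% in leaf (exact permutation p = 0.1), the reverse order.

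**Figure D4:**
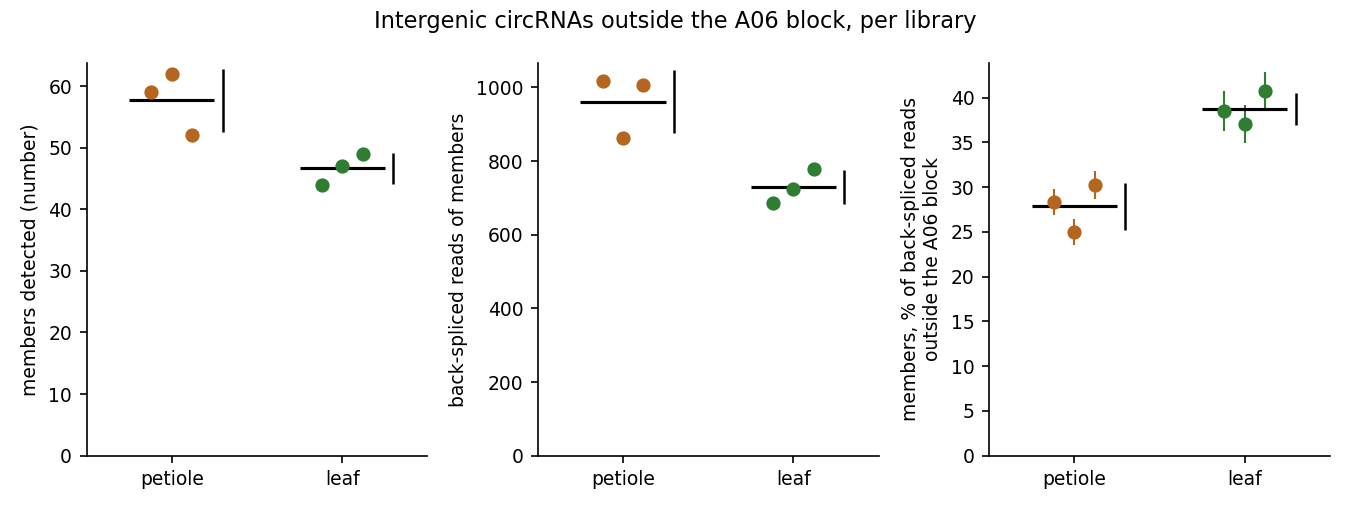
Number of circles detected (left), their back-spliced reads (middle) and their share of the back-spliced reads outside the A06 block in % (right), with a point per library, petiole before leaf. Horizontal lines are means, black vertical bars are 1 SD (n = 3), and thin bars on the right are 95% Wilson intervals; petiole is above leaf in the first 2 panels and below it in the last.

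No single circle passed the test between the tissues. With edgeR's quasi-likelihood test over all circRNAs with reads in at least 3 libraries, 0 of the 38 circles tested here were called at an adjusted p below 0.05, where 1 of all 57 tested circRNAs (1.75%) was called, the intron circRNA ciRNA14. At an unadjusted p below 0.05 there were 4, 3 higher and 1 lower in petiole. Among all 57 there were 7 (12.3%), 4 higher (7.02%) and 3 lower (5.26%). Each of the 4 passed the filter only because 1 tissue held it. Higher in petiole were circRNA601 with 22, 15 and 29 reads there, circRNA612 with 15, 4 and 14 and circRNA634 with 6, 10 and 5, all at 0 in the leaf libraries (edgeR adjusted p = 0.122, 0.123 and 0.138). circRNA45 was at 0 in petiole and had 18, 13 and 7 reads in leaf (edgeR adjusted p = 0.122). DESeq2 called circRNA601 as higher and circRNA45 as lower in petiole, where of all 57 it called 5 (8.77%), 2 higher (3.51%) and 3 lower (5.26%). On the scaled signal limma called all 4, where of all 57 it called 6 (10.5%), 3 higher (5.26%) and 3 lower (5.26%).

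Joining overlapping circles to loci, a step added after the data were seen, raised the calls to 3 of 40 loci, among 6 of all 59 loci and circRNAs tested (10.2%), 3 of them higher (5.08%) and 3 lower (5.08%). The locus of circRNA618 and circRNA693 and circRNA601 were higher and circRNA45 lower in petiole, each with an edgeR adjusted p of 0.0482. All 3 passed the filter only through the tissue that held them. Without a library of that tissue they had reads in 2 libraries and were not tested. Without a library of the other tissue they were tested and none was called, with edgeR adjusted p-values of 0.0535 to 0.121 for circRNA45, 0.0832 to 0.121 for circRNA601 and 0.0782 to 0.141 for the locus of circRNA618.

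The circles with reads in all 3 libraries of 1 tissue and none of the other had their ends in the following genes. circRNA601 joined 2 genes for molybdate-anion transporters, which carry the metal that some redox enzymes need. circRNA612 began in the gene of trichome birefringence-like 37, of a family that acetylates cell wall polysaccharides, and ended in an unnamed gene. circRNA634 joined 2 genes for aldo-keto reductase 4, and circRNA45 joined an uncharacterized gene to one for cinnamoyl-CoA reductase 1 with the same KO entry, a family that includes the first enzyme of the lignin branch. Of the 8 end genes 7 could be tested and linear RNA was called for 3 (42.9%), against 38.5% of all genes tested; these 3 were higher in petiole for circles of petiole and lower for the circle of leaf. The molybdate transporter BraA01g018600.3C had 53.6 ± 1.29 FPKM in petiole and 3.19 ± 1.21 FPKM in leaf (log2 fold change 3.32, SE 0.28, edgeR adjusted p = 0.000347). Its partner BraA01g018620.3C had a log2 fold change of 0.95 and missed the threshold (edgeR adjusted p = 0.0522). Trichome birefringence-like 37 had 12.9 ± 2.53 FPKM in petiole and 2.13 ± 0.314 FPKM in leaf (log2 fold change 1.85, SE 0.19, edgeR adjusted p = 0.000813). Cinnamoyl-CoA reductase 1 had 1.02 ± 0.138 FPKM in petiole and 12.9 ± 2.53 FPKM in leaf (log2 fold change -4.41, SE 0.22, edgeR adjusted p = 4.12e-05). For aldo-keto reductase 4 neither gene passed (edgeR adjusted p = 0.967 and 0.536). The unnamed partner BraA05g010990.3C of circRNA612 was at 0, 2.05 and 2.79 FPKM in petiole, was listed at 0 in leaf and was not called (edgeR adjusted p = 0.0993), and the uncharacterized partner BraA06g006380.3C of circRNA45 had too few counts to be tested.

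Over the whole set, linear RNA of the overlapped genes changed about as often as that of genes in general. Of the 307 genes, 211 had enough counts to be tested, and 39 were called higher and 44 lower in petiole (39.3%), with a median log2 fold change of -0.19. Among all 25854 genes tested, 38.5% were called, 5065 higher (19.6%) and 4888 lower (18.9%). With limma on log2(FPKM + 1) the calls over all genes split into 10407 higher (40.3%) and 2982 lower (11.5%), and those over the overlapped genes into 78 and 29. That scale is shifted: the median difference over all genes tested was 0.32 on it and 0.00 in the edgeR fit. Annotated transcripts held 42.2% to 43.8% of the linear counts in petiole and 31.9% to 34.1% in leaf. Genes with at least 10 FPKM in both tissues had a median log2 FPKM ratio of petiole over leaf that was 0.75 above their edgeR log2 fold change. FPKM levels are therefore set side by side as deposited, and directions are taken from the edgeR fit. The markers of the green blade fell beside these genes, and their part in the linear differences was not tested. With all transcripts under each gene's name, 164 of 247 overlapped genes (66.4%) were called against 64.0% of all genes.

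The genes that hold a circle end were grouped by where the circle was found, and the differences between these groups were not tested. A gene with ends of several circles can stand in more than 1 group, as 13 of the tested genes did. Most circles of 1 tissue were found in 1 library, 63 of 78 in petiole and 47 of 55 in leaf. For these, being in 1 tissue alone follows from being in 1 library. For circles of the petiole libraries alone, 71 end genes were tested, of which 22 were called higher and 5 lower in petiole, with a median log2 fold change of 0.30. For circles of the leaf libraries alone it was 37 end genes, 5 higher and 18 lower, with a median of -1.01. End genes of circles in both tissues had 11 higher and 5 lower of 47, with a median of 0.04, against a median of 0.00 over all genes tested. With all transcripts under each name, 39 were higher and 12 lower of 80 for petiole alone, with a median of 0.31. For leaf alone 8 were higher and 25 lower of 41, with a median of -1.15. For both tissues 18 were higher and 21 lower of 57, with a median of -0.06, so the balance turned round. Over all genes 64.0% were called in this way, and 50.5% of these calls were higher. The shift on the FPKM scale touches these counts. With limma on log2(FPKM + 1), 37 were higher and 1 lower of 71 for petiole alone. For leaf alone 11 were higher and 13 lower of 37, and for both tissues 18 were higher and 3 lower of 47. Over all genes limma called 40.3% higher and 11.5% lower. Both end genes could be tested for 53 gene-to-gene circles, and they lay on opposite sides of 0 in 20 of them.

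**Figure D5:**
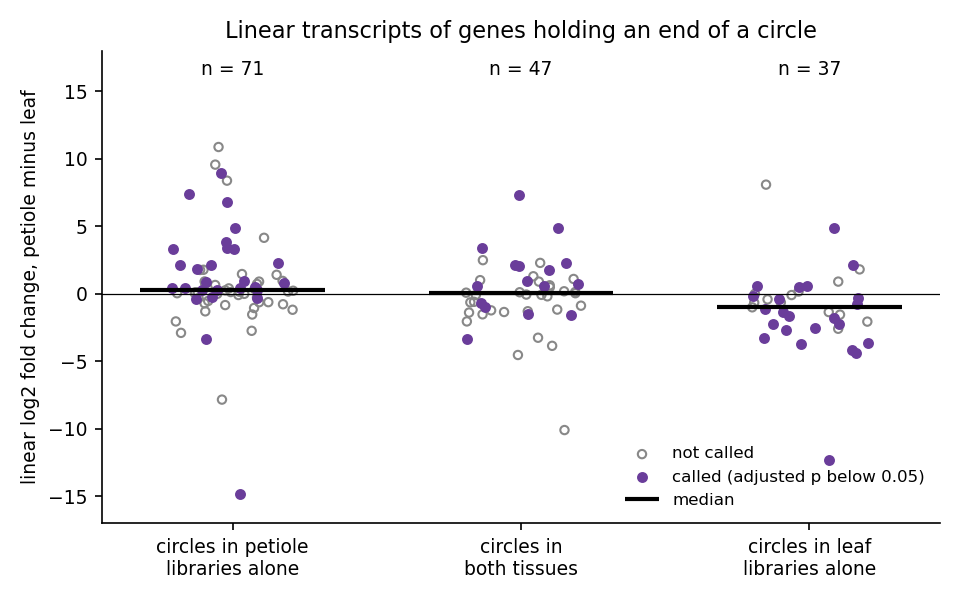
Linear log2 fold change, petiole minus leaf (vertical axis), of the tested genes that hold an end of a circle, for circles found in petiole libraries alone (n = 71), in both tissues (n = 47) and in leaf libraries alone (n = 37), with 13 genes in more than 1 group. Each point is a gene, filled where edgeR called it at an adjusted p below 0.05, and the bars are the medians of 0.30, 0.04 and -1.01. Of the circles in petiole or leaf libraries alone, 63 of 78 and 47 of 55 were found in 1 library.

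Among the genes higher in petiole were all 3 of the lipoxygenase 2 cluster. Its middle gene BraA07g031000.3C had 238 ± 22.5 FPKM in petiole and 0.900 ± 0.530 FPKM in leaf (log2 fold change 7.29, SE 0.68, edgeR adjusted p = 0.000511). The outer genes had 117 ± 7.52 FPKM in petiole and 2.34 ± 0.293 FPKM in leaf (log2 fold change 4.89), and 57.9 ± 1.67 FPKM in petiole and 7.89 ± 0.592 FPKM in leaf (log2 fold change 2.12). The other 4 largest rises were in a peroxidase 34 gene (BraA06g017950.3C, 82.4 ± 6.70 FPKM in petiole and 0.0992 ± 0.108 FPKM in leaf, log2 fold change 8.91), an ABC transporter G family member 33 (BraA05g008200.3C, log2 fold change 7.42) and the uncharacterized BraA03g000870.3C and BraA09g002050.3C (6.76 and 5.75). Peroxidase 34 acts on the cell wall and in defence in Arabidopsis.

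Among the genes lower in petiole, 4 of the 5 largest falls were listed at 0 in all petiole libraries and get no fold. Among these were a PHO1 homolog 3 (BraA06g010190.3C, 9.95 ± 0.442 FPKM in leaf), of a family known from phosphate export, an ECERIFERUM 3 (BraA03g012240.3C, 1.57 ± 0.224 FPKM in leaf), of the synthesis of cuticular wax in Arabidopsis, and a cytochrome P450 81D11 (BraA07g039330.3C, 1.36 ± 0.179 FPKM in leaf). A resistance gene of the RPP8 type (BraA05g009010.3C) was also listed at 0 in petiole and had 0.0745 ± 0.0113 FPKM in leaf, and a second PHO1 homolog 3 (BraA06g010180.3C) was close to 0 in petiole (log2 fold change -6.40, SE 1.81, edgeR adjusted p = 0.037). circRNA23, which ends in the ECERIFERUM 3 gene and its copy, had 140 reads in leaf replicate 1 and 0 in all other libraries. circRNA620, which ends in the PHO1 homolog 3 gene listed at 0 in petiole, had 4, 4 and 0 reads in petiole and 0 in leaf.

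Both defensin genes joined by circRNA192 fell while its reads overlapped between tissues. Defensin-like protein 4 had 515 ± 50.3 FPKM in petiole and 3156 ± 140 FPKM in leaf (log2 fold change -3.37, SE 0.09, edgeR adjusted p = 4.66e-06), and defensin-like protein 3 had 177 ± 26.9 FPKM in petiole and 316 ± 46.4 FPKM in leaf (log2 fold change -1.59, SE 0.16, edgeR adjusted p = 0.000684). The V-type ATPase B3 gene BraA07g015870.3C had 265 ± 7.95 FPKM in petiole and 79.97 ± 2.81 FPKM in leaf (log2 fold change 0.98, SE 0.04, edgeR adjusted p = 1.78e-05). For its partner BraA07g015820.3C (2.10 ± 0.0526 FPKM in petiole and 0.259 ± 0.152 FPKM in leaf, log2 fold change 2.26) the direction turned round when all transcripts under its name were counted (log2 fold change -0.26, edgeR adjusted p = 0.688).

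Of the 5 overlapped genes with the highest linear levels, 4 held an end of a short circle, and no such circle had over 11 reads in a library. circRNA617, of 217 bases, lay over BraA06g003700.3C, the gene with the highest linear level of all that were overlapped, and had 11 reads in petiole replicate 1 alone. circRNA600, of 147 bases, had 11 reads in the same library at the end of the peroxidase 42 gene, whose linear RNA was at 6201 ± 114 FPKM in petiole and 2050.1 ± 65.9 FPKM in leaf (log2 fold change 0.84, SE 0.02). circRNA440, of 628 bases, had 10 reads in leaf replicate 3 alone. 1 of its ends lay in BraA04g011050.3C, described as ribulose 1,5-bisphosphate carboxylase/oxygenase (Rubisco), with 396 ± 2.34 FPKM in petiole and 4315 ± 219.6 FPKM in leaf (log2 fold change -4.20, SE 0.04). A proline-rich protein gene (BraA03g040080.3C), which was not called, held an end of circRNA748 and of circRNA27. circRNA748, of 221 bases, had 2 reads in petiole replicate 3 alone, and circRNA27, of 215 bases, had 0 in petiole and 4, 0 and 6 in leaf. In all, 20 circles had at least 10 reads in 1 library and 0 in the others, among them circRNA602 with 46 reads in petiole replicate 1, between 2 genes for the Rieske protein of the mitochondrial cytochrome b-c1 complex. Those genes were called in opposite directions in the edgeR fit, BraA02g004880.3C with a log2 fold change of 0.44 (edgeR adjusted p = 0.0173) and BraA02g004890.3C with -0.43 (edgeR adjusted p = 0.0147), and the second one was above 0 with limma on log2(FPKM + 1), at 0.31.

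The names of the overlapped genes were searched for a few listed functions, and each of these took a small part. Ribosomal names made up 6 of the 307 genes (1.95%, against 0.729% of all annotated genes), plastid or mitochondrion type proteins 4 (1.30%, against 0.352%) and heat shock or stress names 2 (0.651%, against 0.424%). Transposon names and the listed names of green blade proteins were on 0 genes. The Rubisco and Rieske genes above are under names that the lists do not hold. Other protein names, which were not sorted by function, made up 165 genes (53.7%, against 57.5% of all genes). Genes without a protein name made up 130 (42.3%, against 40.6% of all genes), and these counts are descriptions with no test.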

How the data were processed

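Total RNA of 3 petiole and 3 leaf libraries had been depleted of ribosomal RNA and made into stranded libraries, per the labels' protocols. The authors deposited back-spliced read counts per circRNA, and beside them a signal that is each count times 1 constant per library. For linear transcripts they deposited estimated counts, which are whole numbers, and FPKM, with 0.0001 where the count was 0, treated here as 0. The submitters' processing notes name HISAT2, StringTie and TopHat, with no version or role. The circRNA caller, the genome build and the counting of reads that match several places were not given in the sources used here. Positions stand as in the deposited tables. No sequences were used here.

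The members are circRNAs of the intergenic type outside the A06 block, and they and the gene lists were chosen with earlier results of these data known. Circles named are those in at least 3 libraries, the 10 with the most reads, the 5 longest and shortest, those with at least 10 reads in 1 library alone and those of the largest loci; genes named are overlapped by these, or among the 5 largest rises, falls and levels of all overlapped genes. Other circles and genes named were chosen after their values were seen, among them those joining genes of 1 name. A gene is the span of the transcripts that match the annotation, and overlap means 1 shared base. Names were compared after removing isoform numbers and words such as "-like".

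Counts were tested with edgeR 4.0.16 (TMM, quasi-likelihood test) in R 4.3.3 over all circRNAs with reads in at least 3 libraries, and over all annotated genes with a mean of at least 10 counts, with Benjamini-Hochberg adjustment and a threshold of 0.05. A positive log2 fold change means higher in petiole. The SE given beside it was derived from the test, as the size of the log2 fold change over the square root of the F value. The fits were tested on simulated data. DESeq2 1.42.0, limma 3.58.1 on log2(value + 1), no filter, all transcripts under a gene's name, a replicate block and leaving out each library were alternatives. Summing circles to loci, dropping the 2 intron circRNAs, comparing end genes, the scaled signal, differences within replicate numbers and fits without TMM were chosen after seeing the data. Exact permutation tests used SciPy 1.17.1.

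Petiole and leaf libraries share replicate numbers. In the circRNA counts, same-numbered libraries deviated together (r = 0.28, 0.23 and 0.23), so a fit with the number as a block was made; it gave 0 calls among the intergenic circRNAs and 1 in all, as without it.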

Additional observations from a re-analysis of the deposited data

How the results depend on the processing

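The share of these circles in the back-spliced reads outside the A06 block had a petiole minus leaf difference of -10.9 percentage points. Of all back-spliced reads the difference was 7.71, so the direction turned. Much of the first denominator was the 2 intron circRNAs, and the second also held the block. Outside the block lay 3593 of 3618, 3446 of 3493 and 3327 of 3396 reads in petiole. In leaf it was 1785 of 3739, 1951 of 3216 and 1914 of 4227. Calls over all circRNAs, 1 in the edgeR fit, came to 5 with DESeq2, 0 with edgeR on DESeq2's size factors and 6 with limma on the scaled signal. Among the intergenic circRNAs outside the block they were 0, against 2 with DESeq2 and 4 with limma. The 3 calls for loci came to 0 when any library was left out, in part because loci then no longer passed the filter on libraries. Linear calls were 9953, and 18301 with all transcripts under a gene's name, where more genes could be tested, and the overlapped genes had 83 and 164 calls. The replicate block gave 7189 linear calls; same-numbered linear libraries did not deviate together (r = -0.02, 0.01 and 0.01). Asking for at least 50% of the span in genes left 61 of the 149 circles that overlap one. Circles in at least 2 libraries had a median span of 8271 bases, and 44 of them had ends in 2 genes.

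Leaving out each library in turn gave 1 to 1 circRNA calls, 0 to 0 calls among the circles here, 8506 to 8964 linear calls, 73 to 79 calls among overlapped genes, and 66 to 74 circles with ends in 2 genes. Alternatives were listed for 33 genes, those with the largest rises, falls or levels and the called end genes of named circles; 32 were called, most by this choice. Over the alternatives 311 of their values kept both the side and the call status, 41 kept the side but lost the call, and 8 turned. Of the end genes of circles named for their libraries, reads or span, 24 of 50 tested were called, against 38.5% of all genes. BraA02g004890.3C (-0.43) was at 0.31 with limma, and BraA07g015820.3C (2.26) at -0.26 with all transcripts. BraA03g040080.3C, a proline-rich protein gene that was not called (log2 fold change -0.01), was at 0.00624 with DESeq2, 0.000565 without a filter, 0.0216 with all transcripts, 0.74 with limma and -0.034 to 0.00392 with a library left out. The causes were not tested. Of the 180 circles, 100 had under 10 reads in all, and 38 had reads in enough libraries to be tested, which limits the precision of the circle counts.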
